A study of Homo sapiens with 6 samples.

Results

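The NRF2 antioxidant targets described here are 9 genes, *NQO1*, *HMOX1*, *GCLC*, *GCLM*, *TXNRD1*, *SRXN1*, *TRIM16*, *TRIM16L* and *AKR1C1*, whose rows were taken from the deposited expression table by their symbols. They are 9 of the 20824 genes in the table. All 9 averaged 0.5 RPKM or more, as did 12805 genes in all, which were the genes tested. RPKM is a read number divided by transcript length and by the size of the library. The libraries came from 21NT cells, an established human breast cancer line with features of ductal carcinoma in situ, carrying either an empty pcDNA3.1 vector (EV), the same vector with isoform 1 of TBX3 (TBX3iso1) or the vector with isoform 2 (TBX3iso2). TBX3 is a T-box transcription factor, and the study asked which transcripts differ when either isoform is overexpressed. Cells of all 3 lines grew in medium with serum, insulin, EGF, hydrocortisone and the selection agent G418, and 2 mRNA libraries per line were sequenced, 6 in all. Each line was made by pooling the resistant clones, so its 2 libraries do not stand for separate lines. Where the 2 libraries of a line were grown is not described, and the SDs and p-values below measure the spread between these libraries, which may be technical.

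NRF2, the product of *NFE2L2*, is a transcription factor that KEAP1 holds in the cytoplasm and hands to a CUL3 ubiquitin ligase for degradation. Oxidants and electrophiles modify cysteines of KEAP1, NRF2 then escapes degradation, pairs with a small MAF protein and binds the antioxidant response element near its target genes. The repressor BACH1 competes for the same element, above all at *HMOX1*. The targets supply glutathione, reduce thioredoxin and peroxiredoxins, and detoxify quinones, carbonyls and heme, and mutations that stabilize NRF2 occur in several carcinomas. Because NRF2 is controlled mainly through protein stability, the level of its mRNA does not report its activity.

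The libraries held between 43176600 and 54512400 alignments. The table gives no counts per gene, but the lowest depth among the members was that of *AKR1C1*, at 552 alignments per kilobase in its lowest library, and the highest was that of *NQO1*, at 9772. *TBX3* itself, given as 1 total for both isoforms, averaged 8.38 ± 0.199 RPKM in EV, 12.3 ± 1.23 in TBX3iso1 and 16.5 ± 1.41 in TBX3iso2 (SD, n = 2 each). Total *TBX3* was therefore higher in the TBX3iso2 than in the TBX3iso1 line (log2 fold change 0.43, limma adjusted p = 0.0275), and in the direct comparison of the isoforms, isoform and *TBX3* level cannot be told apart. Against EV, total *TBX3* was 1.45-fold higher in TBX3iso1 (limma adjusted p = 0.00378), under the 1.5-fold threshold used below. In TBX3iso2 it was 1.96-fold higher (adjusted p = 0.000257), past that threshold. Of 12 epithelial and mammary tumour markers 11 reached a mean of 0.5 RPKM, with *KRT8* the highest at 656 RPKM and *KRT14* under 0.5 RPKM in every library. Their summed level was 3684 to 3798 RPKM in EV, 2911 to 3179 in TBX3iso1 and 3231 to 3620 in TBX3iso2. Among markers of other cells, only *COL1A1* of 8 fibroblast genes, *CD14* and *CD68* of 6 leukocyte genes in the table and *PECAM1* of 7 endothelial genes reached a mean of 0.5 RPKM, and *PTPRC*, which defines leukocytes, averaged 0.00474 RPKM. The summed leukocyte list was 52.7 to 54.96 RPKM in EV and 36.4 to 36.8 RPKM in the 4 TBX3 libraries, the endothelial list 7.58 to 7.95 and 1.34 to 1.52 RPKM, and the fibroblast list 4.73 to 5.01 and 7.20 to 8.84 RPKM, and the part of these shifts in the results below was not tested.

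The 9 targets did not move together. Against EV, *SRXN1*, *TRIM16* and *TRIM16L* rose in both TBX3 lines, *HMOX1* fell in both, *NQO1* and *AKR1C1* fell in the TBX3iso1 line, *GCLC* fell in the TBX3iso2 line, and *GCLM* and *TXNRD1* passed the test in no comparison. A gene is said to rise or fall where limma's Benjamini-Hochberg adjusted p was under 0.05, and to be called where its fold change was also over 1.5, on the log2(RPKM + 0.1) scale. For TBX3iso1 against EV, 3 of 9 members were called, beside 21.5% of all genes tested. *TRIM16L* was called higher, beside 7.46% of all genes, and *HMOX1* and *AKR1C1* lower, beside 14.1%. For TBX3iso2 against EV, 2 of 9 members were called, beside 21.2% of all genes. *TRIM16* and *TRIM16L* were both called higher, beside 8.94% of all genes. By limma 0 members were called lower in that comparison, beside 12.3% of all genes, although 3, *HMOX1*, *GCLC* and *AKR1C1*, were lower at an unadjusted p under 0.05, and *GCLC* was called lower under 3 of 14 alternative settings. Between the isoforms 0 of 9 members were called by limma, under the main setting and under each of the 14 alternatives, beside 6.29% of all genes, and 3 members had an unadjusted p under 0.05. By the adjusted p alone, 6 of 9 members differed in TBX3iso1 (44.8% of all genes), 5 of 9 in TBX3iso2 (45.5%) and 3 of 9, *NQO1*, *GCLC* and *TRIM16*, between the isoforms (14.8%). Beside the shares of all genes, the 33.3% and 22.2% of members called against EV are no result about these 9 genes as a group. The median log2 fold change of the members was -0.03 in TBX3iso1 and 0.01 in TBX3iso2, beside -0.05 and -0.00206 for all genes tested, and 0.15 between the isoforms, beside 0.05. Over all genes, the calls in TBX3iso1 split into 955 higher and 1802 lower, and into 1263 and 1449 after median-ratio scaling or 1268 and 1306 after quantile normalization.

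**Figure D1:**
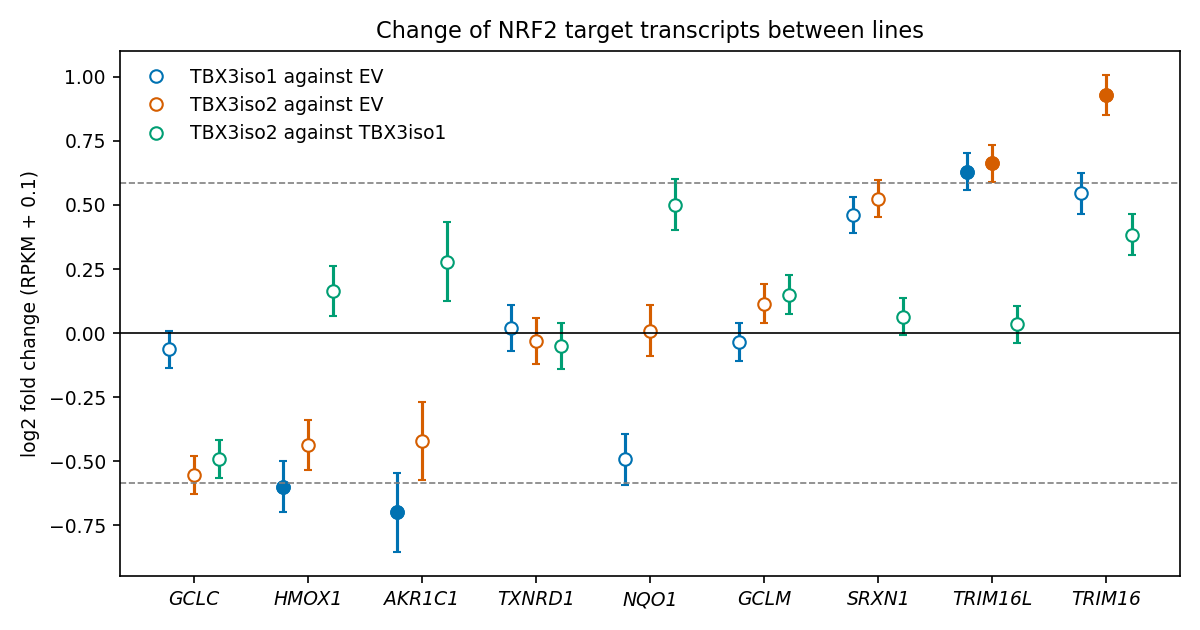
Log2 fold change (RPKM + 0.1, vertical axis) of each of the 9 targets for TBX3iso1 against EV, TBX3iso2 against EV and TBX3iso2 against TBX3iso1, with bars of 1 standard error of the limma fit. Filled points are called (adjusted p under 0.05 and over 1.5-fold, dashed lines), and they are *HMOX1* and *AKR1C1* below the line of no change and *TRIM16* and *TRIM16L* above it.

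In EV cells the targets spanned a wide range of abundance, compared here in RPKM, which is per length. *NQO1* was the most abundant at 285 RPKM, at the 99.0th percentile of all genes tested, and *TXNRD1* followed at 97.1 RPKM. *GCLC*, *SRXN1* and *TRIM16L* lay between 27.8 and 30.6 RPKM, *AKR1C1* and *HMOX1* at 21.1 and 18.6 RPKM, and *TRIM16* and *GCLM* lowest at 16.8 and 16.3 RPKM, the latter at the 69.5th percentile. Neighbours in this order were apart in their EV libraries, except *SRXN1* and *TRIM16L*, and *TRIM16* and *GCLM*, whose libraries overlapped. The order was not kept in the TBX3 lines. In both of them *SRXN1* stood above *GCLC*, *TRIM16L* above *SRXN1* and *TRIM16* above *HMOX1*, with the libraries of each pair apart. *TRIM16* and *GCLM*, which overlapped in EV, were also apart there, with *TRIM16* the higher. Whether reads were counted by strand is not described, and *NQO1*, *GCLC*, *TXNRD1* and *TRIM16* each overlap genes annotated on the opposite strand, whose reads may be included.

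**Figure D2:**
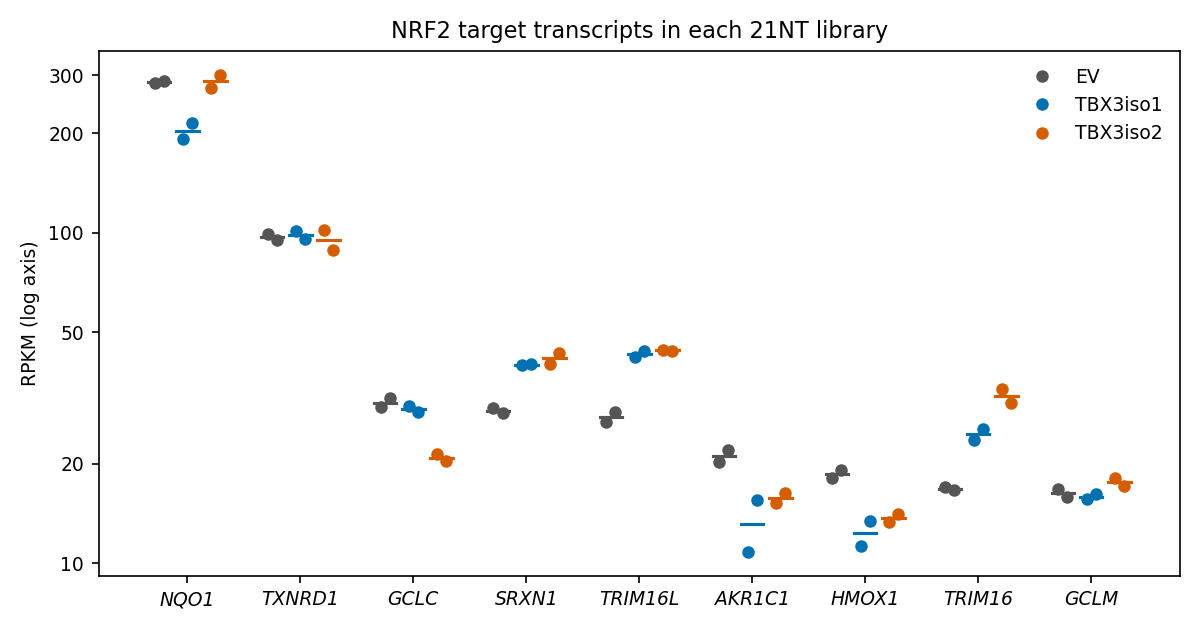
RPKM of the 9 targets (log axis) in each of the 6 libraries, 1 point per library, with a bar at the mean of each line. *NQO1* is between 273 and 301 RPKM in EV and TBX3iso2 and lower in both TBX3iso1 libraries, *GCLC* is lower in both TBX3iso2 libraries, and *SRXN1*, *TRIM16* and *TRIM16L* are higher in all 4 TBX3 libraries than in EV.

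Promoter sequence was taken from the RefSeq table of windows from 250 bases before to 50 bases after annotated starts, which held 8 windows for 7 of the 9 members, and none for *HMOX1* and *TRIM16L*. The core of the antioxidant response element, TGACNNNGC on either strand, was in 3 of these 8 windows, beside 13.3% of all 35116 windows. They belong to *GCLM*, with 1 match whose first base is at position -34 from the start, and to *TXNRD1*, with matches at -99 and -8 from a first start and at -102 from a second. A T-box core, AGGTGTNA on either strand, was in 0 of the 8 member windows and in 2.61% of all windows. Neither count says anything about elements farther away or about the members without a window. From its binding arrays, the paper lists *TRIM16L* among changed genes that both TBX3 isoforms bound at overlapping places and that hold a T-box element. That binding was not examined here. The stretches below, placed on GRCh37 by exact match and given 5′ to 3′ on the strand of the gene, run from 120 bases before the start through 9 bases from it. *GCLM* (chr1:94374978-94375106, minus strand) and both *TXNRD1* windows (chr12:104609437-104609565 and chr12:104680690-104680818, plus strand) are shown because they hold the element, and *TRIM16* (chr17:15586257-15586385, minus strand) because it had the largest difference from EV. The *TRIM16* start used here lies inside the gene model given below, whose 5′ end is at chr17:15587625. No window held that end, so the sequence before it was not searched. Whether transcription begins at the start used was not examined, so this *TRIM16* window, 1 of the 8 counted, may not be a promoter. Capitals mark TGACNNNGC or its reverse complement.
GCLM: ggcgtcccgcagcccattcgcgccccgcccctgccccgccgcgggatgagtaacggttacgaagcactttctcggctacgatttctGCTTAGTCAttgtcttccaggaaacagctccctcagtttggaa
TXNRD1, first start: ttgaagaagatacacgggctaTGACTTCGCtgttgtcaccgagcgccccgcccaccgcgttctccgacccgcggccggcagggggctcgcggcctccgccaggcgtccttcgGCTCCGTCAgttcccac
TXNRD1, second start: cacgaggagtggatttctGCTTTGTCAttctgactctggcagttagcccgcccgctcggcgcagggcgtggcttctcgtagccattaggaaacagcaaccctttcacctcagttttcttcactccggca
TRIM16: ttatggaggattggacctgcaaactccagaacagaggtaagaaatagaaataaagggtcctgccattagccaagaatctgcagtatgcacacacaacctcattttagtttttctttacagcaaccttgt

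Glutathione synthesis starts with glutamate-cysteine ligase, whose catalytic subunit is encoded by *GCLC* and whose modifier subunit by *GCLM*. *GCLC* (chr6:53362139-53481768, minus strand, GRCh37) measured 29.7 and 31.6 RPKM in the EV libraries, 29.95 and 28.6 in TBX3iso1, and 21.3 and 20.3 in TBX3iso2. Both TBX3iso2 libraries lay below the other 4, and the EV and TBX3iso1 libraries overlapped. Mean *GCLC* was 30.6 ± 1.35 RPKM in EV and 20.8 ± 0.715 in TBX3iso2 (SD, n = 2), a log2 fold change of -0.55 ± 0.0734 (SE, adjusted p = 0.000832). The fold of 1.47 stayed under the threshold of 1.5 by a small margin, so the call was gained without EV replicate 1 (-0.60) or TBX3iso2 replicate 1 (-0.59) and after quantile normalization (-0.63). In TBX3iso1 the log2 fold change of *GCLC* was -0.06 (95% interval -0.23 to 0.11, adjusted p = 0.505). The direct comparison of the isoforms gave -0.49 ± 0.0734 (adjusted p = 0.00579), so *GCLC* was lower in the TBX3iso2 line than in either of the others.

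The modifier subunit did not share this pattern. *GCLM* (chr1:94350755-94375012, minus strand) was at 16.8 and 15.8 RPKM in EV, 15.6 and 16.2 in TBX3iso1, and 18.2 and 17.2 in TBX3iso2. Its TBX3iso2 libraries were the 2 highest of the 6, but the gap was small beside the spread, with a log2 fold change against EV of 0.12 (95% interval -0.06 to 0.29, adjusted p = 0.244). The TBX3iso1 libraries overlapped EV, at -0.03 (-0.21 to 0.14, adjusted p = 0.729), and the isoforms differed by 0.15 (-0.02 to 0.32, adjusted p = 0.224). The 2 subunits of the ligase thus gave unlike values in TBX3iso2, although the difference between the 2 genes was not itself tested.

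Thioredoxin reductase 1, encoded by *TXNRD1*, returns oxidized thioredoxin to its active form with electrons from NADPH. *TXNRD1* (chr12:104609557-104744085, plus strand) held 98.9 and 95.3 RPKM in EV, 101 and 96.0 in TBX3iso1, and 102 and 88.8 in TBX3iso2. The 3 lines overlapped throughout. Log2 fold changes were 0.02 (95% interval -0.19 to 0.23, adjusted p = 0.873) for TBX3iso1, -0.03 (-0.24 to 0.18, adjusted p = 0.808) for TBX3iso2 and -0.05 (-0.26 to 0.16, adjusted p = 0.761) between the isoforms. These intervals leave out a change of 1.5-fold in either direction.

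Sulfiredoxin, the product of *SRXN1*, repairs peroxiredoxins whose active cysteine has been overoxidized. *SRXN1* (chr20:627259-633844, minus strand) stood at 29.4 and 28.5 RPKM in EV, 39.8 and 39.9 in TBX3iso1, and 40.1 and 43.2 in TBX3iso2. All 4 TBX3 libraries were above both EV libraries. The gene rose by 0.46 ± 0.0716 (SE) on the log2 scale in TBX3iso1 (adjusted p = 0.00179) and by 0.52 ± 0.0716 in TBX3iso2 (adjusted p = 0.000959), with folds of 1.38 and 1.44 that did not reach the threshold of 1.5. The isoforms differed by 0.06 (95% interval -0.10 to 0.23, adjusted p = 0.602). A second protein-coding gene model on the same strand overlaps *SRXN1* and holds 90.6% of its 51-base windows, the length of the sequenced reads. A read from a shared window fits both models.

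*NQO1* encodes a quinone reductase that transfers 2 electrons at once and is the textbook reporter of NRF2 activity. *NQO1* (chr16:69740899-69760571, minus strand) measured 283 and 287 RPKM in EV, 192 and 215 in TBX3iso1, and 273 and 301 in TBX3iso2. Both TBX3iso1 libraries were below the other 4, whereas TBX3iso2 enclosed the EV values. The mean of 203 ± 16.3 RPKM in TBX3iso1 against 285 ± 2.53 in EV (SD, n = 2) was a log2 fold change of -0.49 ± 0.0998 (SE, adjusted p = 0.00591), with a 1.41-fold lower level that was not called. In bulk RNA, fewer cells with the transcript and less of it per cell cannot be told apart, here or for the genes below. In TBX3iso2 the mean was 287 ± 19.4 RPKM and the log2 fold change 0.01 (95% interval -0.22 to 0.24, adjusted p = 0.949). *NQO1* differed between the isoforms by 0.50 ± 0.0998 (adjusted p = 0.0165). After quantile normalization the TBX3iso1 value became -0.65 and was called.

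*AKR1C1* encodes an aldo-keto reductase that reduces carbonyls and inactivates progesterone. *AKR1C1* (chr10:5005445-5025475, plus strand) was at 20.2 and 22.04 RPKM in EV, 10.8 and 15.5 in TBX3iso1, and 15.2 and 16.3 in TBX3iso2. The EV libraries were the 2 highest, and the TBX3iso1 replicates were 0.51 apart on the log2 scale, the widest gap between replicates of any member. In TBX3iso1 the gene was called lower, at -0.70 ± 0.154 (SE, adjusted p = 0.00833), a 1.62-fold lower mean. That call rested on single libraries, since the value was -0.44 without TBX3iso1 replicate 1, and the adjusted p was 0.0719 without EV replicate 2. An ordinary linear model without moderation gave an adjusted p of 0.115. For TBX3iso2 the log2 fold change was -0.42 (95% interval -0.78 to -0.06), which missed the threshold at an adjusted p of 0.0565, and the isoforms differed by 0.28 (-0.08 to 0.64, adjusted p = 0.268).

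The gene lies beside near copies, so its reads are uncertain. Of its 51-base windows, 22.4% also occur in transcripts of other genes, most of them in *AKR1C2*, and 45.2% of those of *AKR1C2* occur in *AKR1C1*. The authors' alignment kept reads with several placements up to a cap. *AKR1C2*, a closely related steroid and carbonyl reductase, measured 12.9 and 14.6 RPKM in EV, 4.17 and 5.36 in TBX3iso1, and 7.66 and 8.53 in TBX3iso2, with no overlap between any of the lines. It was called lower in TBX3iso1 (log2 fold change -1.52, adjusted p = 0.000125) and in TBX3iso2 (-0.76, adjusted p = 0.00289), and called higher in TBX3iso2 than in TBX3iso1 (0.76, adjusted p = 0.00981). The ordinary linear model raised these last adjusted p-values to 0.0673 and 0.131, and the isoform call was also lost with no filter on low values (adjusted p = 0.0550). *AKR1C3*, the third of the cluster shown, fell by 0.51 and 0.50 on the log2 scale in TBX3iso1 (adjusted p = 0.00703) and TBX3iso2 (adjusted p = 0.00751) without being called. All 3 genes were thus lower in the 4 TBX3 libraries than in either EV library.

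*HMOX1* encodes heme oxygenase 1, which opens heme to biliverdin, iron and carbon monoxide. *HMOX1* (chr22:35776354-35790207, plus strand) measured 18.1 and 19.1 RPKM in EV, 11.2 and 13.4 in TBX3iso1, and 13.4 and 14.1 in TBX3iso2. The EV libraries were above all others, and the TBX3 lines met at 13.4 RPKM. In TBX3iso1 it was called lower, with a log2 fold change of -0.60 ± 0.0977 (SE, adjusted p = 0.00224) and a 1.51-fold lower mean, just past the threshold. The call was lost under 6 of 14 alternatives, among them without EV replicate 2 (-0.56) and without TBX3iso1 replicate 1 (-0.47), and it stayed negative throughout, from -0.72 to -0.47. In TBX3iso2 *HMOX1* fell by 0.44 on the log2 scale (adjusted p = 0.00887) and was not called. The isoforms did not differ beyond their spread (0.16, 95% interval -0.06 to 0.39, adjusted p = 0.307).

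*TRIM16* encodes a tripartite-motif E3 ubiquitin ligase that takes part in the response to protein and oxidative stress, and *TRIM16L* is a shorter relative, annotated in the GRCh37 gene models as a transcribed unprocessed pseudogene. *TRIM16* (chr17:15531274-15587625, minus strand) rose stepwise over the lines, with 16.9 and 16.6 RPKM in EV, 23.6 and 25.5 in TBX3iso1, and 33.6 and 30.6 in TBX3iso2. The 3 lines did not overlap. The means were 16.8 ± 0.23, 24.5 ± 1.35 and 32.1 ± 2.11 RPKM (SD, n = 2). For TBX3iso2 the log2 fold change of 0.93 ± 0.0797 (SE, adjusted p = 0.000121) was the largest of any member, a fold of 1.90, and it was called under all 14 alternatives, from 0.86 to 1.00. In TBX3iso1 the gene rose 1.46-fold (0.545 ± 0.0797 on the log2 scale, adjusted p = 0.00137), short of a call, which was gained after median-ratio scaling (0.63) and without TBX3iso1 replicate 1 (0.60). *TRIM16* was also higher in TBX3iso2 than in TBX3iso1, by 0.38 ± 0.0797 (adjusted p = 0.0193).

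*TRIM16L* (chr17:18625550-18638773, plus strand) followed another course, with 26.8 and 28.7 RPKM in EV, 42.0 and 43.9 in TBX3iso1, and 44.3 and 43.7 in TBX3iso2. All 4 TBX3 libraries were above EV, and the TBX3 lines overlapped. It was called higher in TBX3iso1 (log2 fold change 0.63 ± 0.0720, adjusted p = 0.000453) and in TBX3iso2 (0.66 ± 0.0720, adjusted p = 0.000335), with folds of 1.55 and 1.58. The TBX3iso1 call was lost without EV replicate 1, at 0.58, and the TBX3iso2 call after quantile normalization, at 0.58. Between the isoforms the log2 fold change was 0.03 (95% interval -0.13 to 0.20, adjusted p = 0.799). The pair shares sequence, since 31.6% of the 51-base windows of *TRIM16* occur in *TRIM16L* and 55.1% of those of *TRIM16L* in *TRIM16*. Another protein-coding gene model overlaps *TRIM16* on the same strand. It holds 38.6% of the windows of *TRIM16* and 37.9% of those of *TRIM16L*. In all, 57.3% of the windows of *TRIM16* occur in transcripts of other genes. How reads were divided among these models is not described, so the levels of *TRIM16* and *TRIM16L* are uncertain. The 2 rows were not interchangeable, with *TRIM16* stepped and *TRIM16L* level between the TBX3 lines.

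The regulators of the pathway were read beside the targets. *NFE2L2*, which encodes NRF2, measured 22.7 and 23.5 RPKM in EV, 32.4 and 31.7 in TBX3iso1, and 38.6 and 34.9 in TBX3iso2, with all 4 TBX3 libraries above EV. It rose by 0.47 on the log2 scale in TBX3iso1 (adjusted p = 0.00224) and was called higher in TBX3iso2 (0.66, adjusted p = 0.000446). *KEAP1*, the inhibitor, also rose, from 24.0 and 22.2 RPKM in EV to 29.4 and 31.0 in TBX3iso1 (0.39, adjusted p = 0.00999) and 27.4 and 31.3 in TBX3iso2 (0.34, adjusted p = 0.0157), and was called in neither. The repressor *BACH1* had 5.58 and 5.62 RPKM in EV, 4.99 and 4.49 in TBX3iso1, and 4.53 and 3.57 in TBX3iso2. It fell in TBX3iso2 (-0.47, adjusted p = 0.0195), and its value in TBX3iso1 was -0.24 (adjusted p = 0.160). The targets *NQO1*, *HMOX1*, *GCLC* and *AKR1C1* thus each fell in at least 1 TBX3 line, and *SRXN1*, *TRIM16* and *TRIM16L* rose in both, in lines in which the transcript of NRF2 itself rose.

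**Figure D3:**
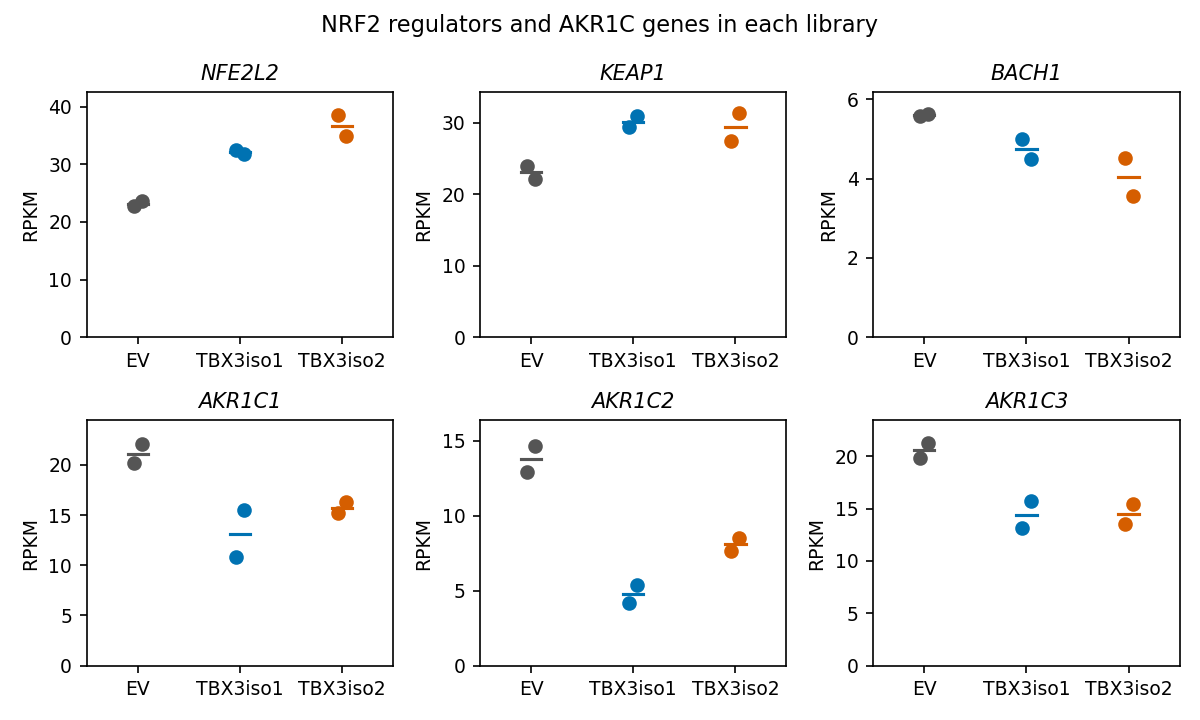
RPKM (linear axis from 0, scaled for each panel) of *NFE2L2*, *KEAP1*, *BACH1*, *AKR1C1*, *AKR1C2* and *AKR1C3*, 1 point per library and a bar at the mean of each line. *NFE2L2* and *KEAP1* are higher and the 3 AKR1C genes lower in all 4 TBX3 libraries than in the EV libraries, and *AKR1C2* is lowest in TBX3iso1, at 4.17 and 5.36 RPKM.

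The other genes of the pathway are given by list, to be read beside all genes tested, of which 7.46% were called higher and 14.1% lower in TBX3iso1, and 8.94% higher and 12.3% lower in TBX3iso2. Among 17 tested regulators of NRF2 and its relatives, 1 was called higher and 1 lower in TBX3iso1 (11.8% of them), and 2 higher and 2 lower in TBX3iso2 (23.5%). *NFE2*, a relative of NRF2 best known from blood cells, fell in both (-2.76 and -2.66), and *NFE2L3*, another relative, rose in both (1.19 and 1.05). Of 24 other genes of glutathione supply and use, 4 were called higher and 3 lower in TBX3iso1, and 2 higher and 4 lower in TBX3iso2. The cystine transporter gene *SLC7A11*, itself a known NRF2 target, was called higher in both (0.85 and 0.73), as was *CHAC2* (0.74 and 1.05), a glutathione-degrading enzyme, while its paralogue *CHAC1* (-0.999 and -1.04) and the glutathione transferases *GSTK1* (-1.03 and -0.93) and *GSTT1* (-0.78 and -0.95) were called lower. Of 17 thioredoxin and peroxiredoxin genes, 2 were called higher and 2 lower in TBX3iso1, and 1 higher and 2 lower in TBX3iso2. *TXNIP*, the inhibitor of thioredoxin, rose the most (2.11 and 1.45), and *SESN2* (-0.81 and -0.77) and the methionine sulfoxide reductase *MSRB1* (-0.68 and -0.62) were called lower.

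NADPH is the cofactor of both TXNRD1 and NQO1. Of 14 genes of its supply 0 were called higher in either TBX3 line by limma, although 1 and 3 were higher at an unadjusted p under 0.05, while 5 (35.7%) were called lower in TBX3iso1, beside 14.1% of all genes, and 4 (28.6%) in TBX3iso2, beside 12.3%, with medians of -0.44 and -0.21, beside -0.05 and -0.00206 for all genes. *IDH1* (-1.49 and -1.44) and *IDH2* (-1.06 and -0.84), the NADP-dependent isocitrate dehydrogenases, and *PGLS* of the pentose phosphate pathway (-0.80 and -0.90) were called lower in both. This list and the next were chosen with earlier results of these data known, and their shares were not tested against those of all genes. Of 24 other genes of quinone, carbonyl and drug handling, 1 was called higher and 7 (29.2%) lower in TBX3iso1, and 2 higher and 8 (33.3%) lower in TBX3iso2, with medians of -0.31 and -0.46. *AKR1C2*, described above as sharing windows with the member *AKR1C1*, is among those called lower in both lines. The aldo-keto reductases *AKR1B10* (-2.15 and -2.31) and *AKR1B15* (-1.96 and -1.25) and the aldehyde dehydrogenase *ALDH3A1* (-1.64 and -1.24) were called lower in both. In the other direction, *CBR3* was called higher in both (0.77 and 0.93) and *ABCC2* in TBX3iso2 (0.61). Under the ordinary linear model, 0 genes of this list were called higher in either line. *AKR1B15* was near the floor, with means of 1.33 RPKM in EV, 0.265 in TBX3iso1 and 0.497 in TBX3iso2. It passed the filter of 0.5 RPKM only through its EV libraries, which favoured a fall, and it is among the genes counted lower. Whether *AKR1B10* and *AKR1B15* share reads was not examined.

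Of 18 other genes of heme and iron handling, 1 was called higher and 1 lower in TBX3iso1, and 2 higher and 2 lower in TBX3iso2. *HMOX2*, the constitutive heme oxygenase, rose in both lines (0.55 and 0.91) and was called in TBX3iso2, the opposite direction to *HMOX1*. The heme synthesis gene *CPOX* was called higher in TBX3iso1 (0.59), and the transporters *SLC48A1* in TBX3iso1 (-0.70) and *SLC11A2* in TBX3iso2 (-0.89) were called lower. Neighbouring stress systems were mixed. Of 7 other superoxide and peroxide enzymes, 0 were called in TBX3iso1 by limma, where 2 were higher and 1 lower at an unadjusted p under 0.05, and 1 was called higher in TBX3iso2. By a linear model without moderation both of these counts of 0 were also 0. Of 14 heat shock genes, 1 was called higher and 1 lower in TBX3iso1, and 3 higher and 1 lower in TBX3iso2, with *HSPE1* (1.02 and 1.02) higher and *HSPB1* (-0.79 and -0.62) lower in both, and *HSPD1* (0.83) and *HSPA8* (0.66) called higher in TBX3iso2. Of 7 genes of the aryl hydrocarbon receptor (AHR) battery, which shares *NQO1* with NRF2, 1 was called higher and 3 lower in TBX3iso1, and 3 lower in TBX3iso2, where the model without moderation left 1 and 2 of the lower calls. *CYP1A1*, its main reporter, was called higher in TBX3iso1 (1.25), but near the floor, at 0.514 and 0.395 RPKM in EV and 1.39 and 1.05 in TBX3iso1. It passed the filter of 0.5 RPKM through the TBX3 lines. *AHR* (-0.65 and -0.62) and *AHRR* (-0.72 and -1.48) were called lower in both. The other gene lower in both was *ALDH3A1*, also counted above under quinone, carbonyl and drug handling. Without moderation, *AHR* and *AHRR* lost their calls in TBX3iso1 and *ALDH3A1* kept its own. Of 8 metallothioneins, 1 was called higher in each TBX3 line, *MT1A* in TBX3iso1 (0.63) and *MT1E* in TBX3iso2 (0.84).

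Some of these calls depended on the setting. Without moderation, adjusted p rose to 0.0548 and 0.0673 for *SLC7A11* in TBX3iso1 and TBX3iso2, to 0.0709 for *HSPB1* in TBX3iso2, to 0.109 for *MT1A* in TBX3iso1 and to 0.0503 for *MT1E* in TBX3iso2. *AHR* lost its call under 8 of 14 alternatives in each line, and *AHRR* lost that in TBX3iso1 under 7 of the 13 in which it was tested. Leaving out single libraries ended the calls of *AHR* in both lines and of *AHRR* in TBX3iso1 (either EV library, or replicate 2 of the TBX3 line), *MT1A* (EV replicate 1, 0.55, or TBX3iso1 replicate 2, 0.54) and *CPOX* (EV replicate 2, 0.47, or TBX3iso1 replicate 1, 0.57). In TBX3iso2 it ended those of *SLC7A11* (0.56) and *MSRB1* (-0.54) without TBX3iso2 replicate 1, *HSPB1* without EV replicate 1 (-0.56) or TBX3iso2 replicate 1 (-0.49), and *HSPA8* without EV replicate 2 (adjusted p = 0.0599).

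**Figure D4:**
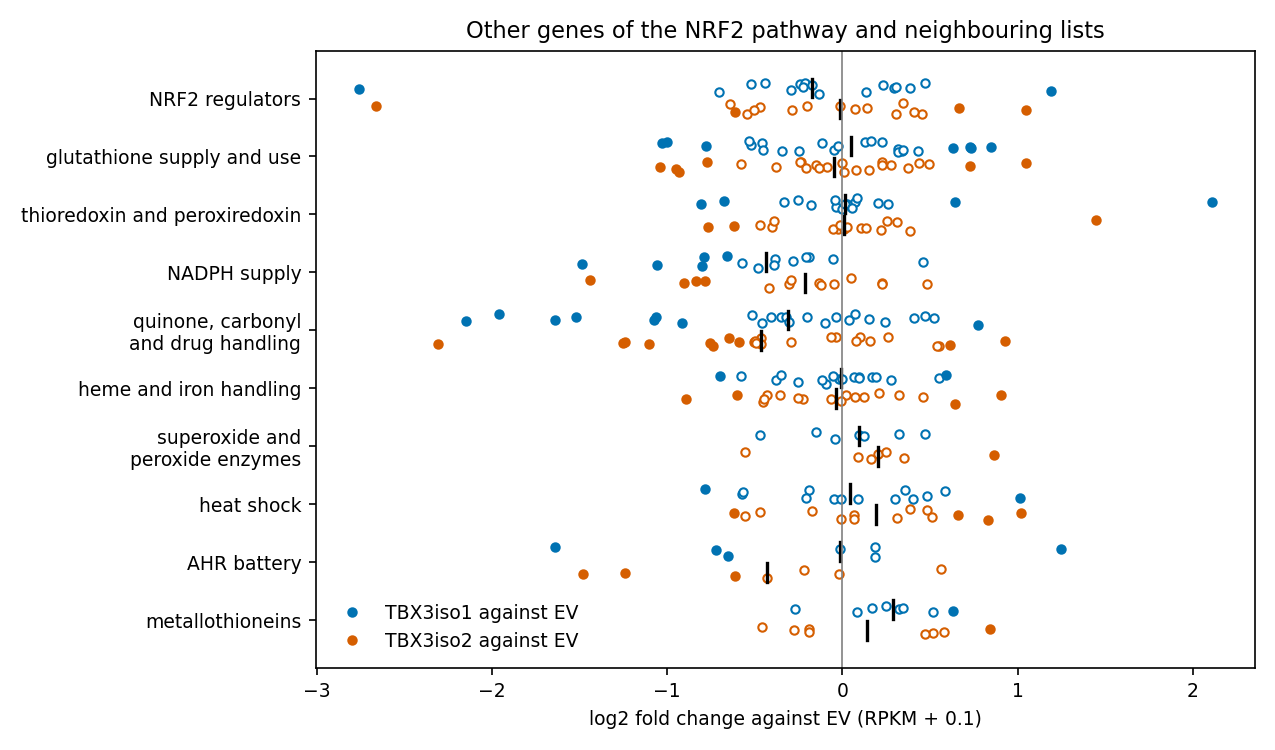
Log2 fold change against EV (RPKM + 0.1, horizontal axis) of each tested gene of the 10 lists outside the 9 targets, in TBX3iso1 and TBX3iso2, with filled points for called genes and a vertical bar at the median of each list. The medians of NADPH supply (-0.44 and -0.21) and of quinone, carbonyl and drug handling (-0.31 and -0.46) lie left of 0 in both lines. So do those of NRF2 regulators (-0.18 and -0.02), heme and iron handling (-0.01 and -0.04) and the AHR battery (-0.01 and -0.43). *NFE2* and *AKR1B10* are the lowest and *TXNIP* the highest points. The lists were chosen with earlier results of these data known.

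Over all 10 lists, 12 of 149 tested genes were called higher and 22 lower in TBX3iso1 (22.8% called), and 14 higher and 25 lower in TBX3iso2 (26.2%). Between the isoforms, 5 were called higher and 4 lower in TBX3iso2 (6.04%). Of all genes tested, 21.5%, 21.2% and 6.29% were called in the same comparisons.

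For each target, the tested gene with the nearest course over the 6 libraries was found by the root mean square distance of log2 values centred on their mean. The likeness of each pair follows from how these genes were picked and is no separate result. Nearest to *NQO1* was *GOT1* (distance 0.0333), with log2 fold changes against EV of -0.44 in TBX3iso1 and 0.02 in TBX3iso2. *HMOX1* lay nearest to *NUCB2* (0.0290), *AKR1C1* to *NRGN* (0.0250) and *GCLC* to *MXI1* (0.0225). *SRXN1* was matched by *RAC2* (0.0192), *TRIM16L* by *PCBP4* (0.0296) and *TRIM16* by *NUP35* (0.0484), the loosest match of the 9. The 2 targets that passed no test were matched by *THUMPD3* for *GCLM* (0.0182) and *TIMELESS* for *TXNRD1* (0.0132).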

How the data were processed

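mRNA of 21NT cells carrying EV, TBX3iso1 or TBX3iso2 was measured in 2 libraries per line. According to the methods, the authors made stranded libraries, read both ends over 51 bases (Illumina HiSeq), placed the reads on hg19 with TopHat under a cap on placements, and deposited RPKM values from Partek Genomics Suite, which also list the alignments of each library. Versions, the gene annotation and the handling of shared or antisense reads are not given in the sources used here.

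Here, 0.1 RPKM was added before log2 was taken, and the 12805 genes averaging 0.5 RPKM or more entered a limma fit (version 3.58.1, R 4.3.3) with 1 mean per line over all 6 libraries (empirical Bayes with trend, Benjamini-Hochberg over all genes tested). Calls needed an adjusted p under 0.05 and over 1.5-fold. This replaces the analysis of variance of the methods. It was also run on simulated data with independent libraries and changes larger than the threshold, which cannot judge calls near 1.5-fold. The members and gene lists were chosen with earlier results of these data known. Named genes are all 9 members, *NFE2L2*, *KEAP1*, *BACH1*, *AKR1C2*, *AKR1C3*, *TBX3*, up to 3 called genes per list and TBX3 line by size of change, the nearest gene of each member and the markers of cell types. *CBR3* and *ABCC2* are also named, as the genes called higher in the quinone, carbonyl and drug handling list. Some genes that meet this rule are left out of the text. The lists covered NRF2 regulators, glutathione, thioredoxin and peroxiredoxin, NADPH supply, quinone, carbonyl and drug handling, heme and iron, superoxide and peroxide enzymes, heat shock, the AHR battery and metallothioneins.

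The settings varied were the pseudocount (1 and 0.01 RPKM), no filter, a filter at 2 RPKM, median-ratio scaling, quantile normalization, only the lines compared, a replicate block, no trend, an ordinary linear model, and each library left out in turn. RPKM gives no counts, so replicate spread stands in for counting error. Positions come from GENCODE v44 models on GRCh37. Promoters come from RefSeq, and shared 51-base windows were counted between the Ensembl canonical transcript of a member and those of other genes. A window stands for 1 end of a fragment, whereas both ends were read, so these counts may overstate how many fragments fit several genes.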

Additional observations from a re-analysis of the deposited data

How the results depend on the processing

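Of 378 values for the 9 targets (27 comparisons under 14 alternatives each), 346 kept their direction and their side of the threshold. The 15 that turned direction belong to values near 0 that passed no test. Median-ratio scaling gave 0.0194 for *GCLC* and 0.0480 for *GCLM* in TBX3iso1, 0.00243 for *TXNRD1* in TBX3iso2 and -0.0170 for *TRIM16L* between the isoforms. Quantile normalization gave 0.00124 for *GCLM* and -0.0548 for *TXNRD1* in TBX3iso1, -0.10 for *NQO1* in TBX3iso2 and -0.0159 for *TRIM16L* between the isoforms. With each library left out in turn, TBX3iso1 against EV ranged from -0.0768 to 0.00731 for *GCLM* and from -0.016 to 0.0556 for *TXNRD1*, TBX3iso2 against EV from -0.0604 to 0.0777 for *NQO1* and from -0.129 to 0.0692 for *TXNRD1*, and TBX3iso2 against TBX3iso1 from -0.148 to 0.0495 for *TXNRD1*.

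Members called in TBX3iso1, 3 in the report, were 1 (*TRIM16L*) under the ordinary linear model and from 1 to 3 with each library left out, with 1 remaining without EV replicate 2. The median log2 fold change of the members was 0.0480 in TBX3iso1 after median-ratio scaling and -0.10 in TBX3iso2 after quantile normalization, and between the isoforms it ranged from 0.0383, without TBX3iso1 replicate 1, to 0.177 with each library left out. Genes called among all tested numbered 1812 rather than 2757 in TBX3iso1 with a pseudocount of 1 RPKM. Between the isoforms they numbered 419 rather than 805 with that pseudocount, 504 with a filter at 2 RPKM, where fewer genes are tested, and 199 under the ordinary linear model. The cause was not tested for the other settings.

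The replicate numbers of the labels were also fitted as a replicate block. The difference of replicate 1 from replicate 2 was taken within each line for every gene. Across genes these differences correlated at 0.22 between EV and TBX3iso1, 0.11 between EV and TBX3iso2 and 0.50 between the TBX3 lines. These correlations may hint at a shared step. Nothing in the labels ties a number to a shared culture or day, and 2 numbers are too few to settle it, so the libraries were not treated as pairs. With the block, 3, 2 and 0 members were called in the 3 comparisons, as without it, and 2838, 2795 and 900 genes in all. The block changed no call of a member. Of the counts over the lists it moved 1 by more than 1.5 times, the metallothioneins called between the isoforms, from 1 to 2.

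With 2 libraries per line no single deviating library can be identified, and the lone library of a line is assumed to vary like the others where its partner was left out. The table gives no counts, so the precision that depth allows was not computed.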
